A study of Mus musculus with 18 samples.

Results

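The constitutive proteasome genes were the protein-coding genes whose symbols begin with Psma, Psmb, Psmc, Psmd, Psme, Psmf or Psmg followed by a digit in the GRCm38 annotation, without the interferon-inducible catalytic subunits Psmb8, Psmb9 and Psmb10 and without pseudogenes. The rule used names only and no measured value. It gave 47 genes of the 34989 genes to which transcripts were matched, and all 47 passed the filter on low counts in every comparison. By role they comprised 8 genes of the 20S alpha ring, 8 of the 20S beta ring, 6 ATPases and 3 non-ATPase subunits of the 19S base, 8 subunits of the 19S lid, 7 assembly chaperones and 6 activators or regulators. The remaining gene, Psmc3ip, matched by its symbol only and encodes a meiotic recombination factor and not a subunit.

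The proteasome is the protease complex that degrades proteins tagged with ubiquitin. Its 20S core is a barrel of stacked alpha and beta rings in which 3 beta subunits carry the active sites, and the 19S particle that caps it binds, unfolds and feeds in the substrate through a ring of ATPases. In cardiac muscle, whose contractile proteins turn over steadily, the complex removes damaged and oxidised proteins. Interferon induces a second set of catalytic subunits, which replace the constitutive ones in the immunoproteasome, and the alternative cap PA28, made of the products of Psme1 and Psme2.

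RNA-seq was performed on the left ventricle (LV) and right ventricle (RV) of hearts from C57B/L6 mice, given in the sample labels as 12 weeks old. The study's methods name the substrain as C57BL/6J and give a younger age range. Each heart was flushed with cold HTK (histidine-tryptophan-ketoglutarate cardioplegic solution), kept in it on ice for 0, 4 or 8 h and then perfused ex vivo with Krebs buffer for 1 h before the ventricles were frozen. The 0 h hearts therefore also went through HTK and 1 h of perfusion, and none of the 6 groups was an unperfused heart. The labels name no transgene, and the perfusate was a buffer without blood. Each ventricle and time had 3 libraries, 18 in all. Both sexes were used according to the study's methods, and sex is not analysed here. The question was how cold storage changes the transcriptome of each ventricle, and here how the genes of the proteasome behaved.

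The libraries held between 22552581 and 46236771 estimated counts, of which the 47 genes took 0.231% to 0.311%. The label of heart muscle was borne out by the 6 cardiomyocyte markers, among them Myh6 and Tnnt2. Their summed level was between 26451 and 63323 counts scaled to library size (CPM) in each library. The lowest of these sums was that of RV 8 h replicate 3. The 4 atrial markers summed to between 53.5 and 800 CPM. That highest value was of RV 8 h replicate 1, against 119 and 221 CPM in replicates 2 and 3, so the share of atrial tissue may differ between libraries. The libraries numbered 3 of all 4 stored groups stood apart from the other 2 of their group. The summed level of 18 interferon-induced genes such as Isg15 and Cxcl10 was 7589, 12622, 8522 and 18712 CPM in LV 4 h, LV 8 h, RV 4 h and RV 8 h replicate 3, against 864 to 3862 CPM in the other 8 stored libraries and 325 to 499 CPM at 0 h. The calls at 8 h that rest on these libraries are given below with and without them. CPM were taken over library sizes scaled by TMM (trimmed mean of M values) factors and are used to compare libraries, and TPM to compare genes.

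At 0 h, levels per transcript length (TPM) were highest for the 20S core. In the LV the medians over genes were 121 TPM for the beta ring and 89.2 TPM for the alpha ring, leaving out the tissue-restricted forms Psma8 and Psmb11. The ATPases of the base had a median of 62.4 TPM, the non-ATPase base subunits 74.4 TPM and the lid subunits 53.3 TPM. Assembly chaperones, which help to build the rings and then leave, were lower at a median of 10.2 TPM. The RV had the same order of these medians from the beta ring down to the chaperones, at 114, 80.2, 68.3, 56.6, 48.0 and 11.2 TPM. Differences between neighbouring roles in this order were not tested, but the lowest of the 7 general beta subunits, Psmb2 at 99.8 TPM in the LV, lay above the highest gene of the lid, Psmd8 at 72.4 TPM.

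**Figure D1:**
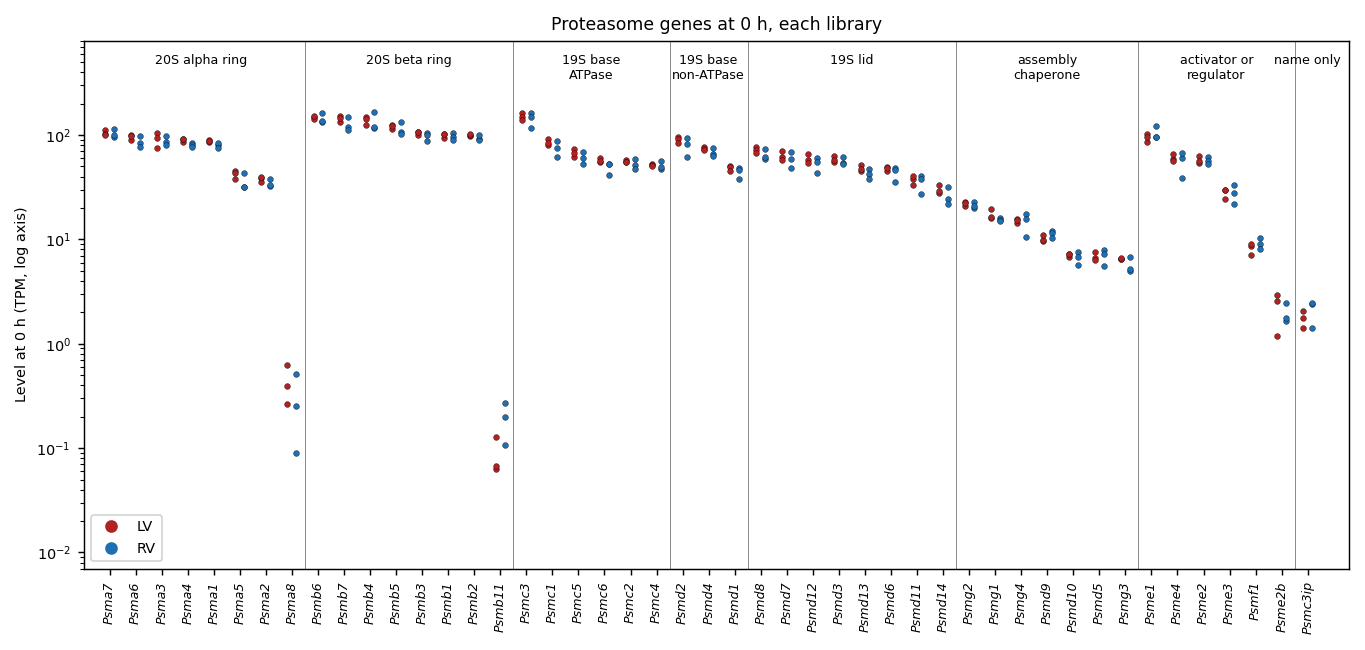
Level of each of the 47 genes at 0 h in TPM on a log axis, ordered by role, with 1 point per library for LV (red) and RV (blue). Most core and 19S genes lie between 30 and 150 TPM, while Psma8 and Psmb11 lie below 1 TPM.

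Within the roles, Psmc3, an ATPase of the base, had the highest LV mean of all at 150 TPM, and the trypsin- and caspase-like catalytic subunits Psmb7 and Psmb6 followed closely at 143 ± 9.76 TPM and 148 ± 4.45 TPM (SD, n = 3). Psmb5, which carries the chymotrypsin-like site, was at 121 ± 5.77 TPM. Psma2 was the lowest of the 7 general alpha subunits with 37.8 TPM. Among activators, Psme1 (94.5 TPM in the LV) lay above Psmf1, an inhibitor of the 20S core, at 8.26 TPM. Psma8, known from testis, was at 0.426 ± 0.184 TPM and Psmb11, known from thymic epithelium, at 0.0856 ± 0.0356 TPM in the LV, so that both were close to absent from this tissue. Psme2b, a copy of Psme2 on another chromosome, was at 2.23 ± 0.927 TPM.

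Few of the constitutive genes passed the test after storage. A gene was called where the adjusted p of edgeR's quasi-likelihood test (Benjamini-Hochberg over all genes tested) was under 0.1 and the fold change over 1.5. In the RV after 8 h, 2 of the 47 genes were called, Psme2 and Psme2b, both higher, while 13% of all 14622 genes tested were called higher and 5.26% lower. The share of the 47 genes was 4.26%. In the LV after 8 h none was called, while 5.46% of the 14564 genes tested were called higher and 1.26% lower. After 4 h none was called in either ventricle, with 2.4% of all genes called higher and 0.398% lower in the LV and 6.17% higher and 3.91% lower in the RV. At an unadjusted p under 0.05 there were 1 and 6 of the 47 genes in the LV at 4 and 8 h, and 2 and 3 in the RV. Of all genes tested, 2271 and 3396 of 14564 were under it in the LV, and 3142 and 4500 of 14622 in the RV. The shares of the 47 were thus below those of all genes. With the study's tool, DESeq2 with transcript-length offsets, 0 genes were called at 4 h in either ventricle, 1 (Psme2) in the LV at 8 h and the same 2 in the RV at 8 h.

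The absence of calls came with narrow intervals for most of the genes. After 8 h the 95% interval of the fold change lay within 1.5-fold in both directions for 37 of 47 genes in the LV and 32 in the RV. After 4 h this held for 38 and 30 genes. The median log2 fold change at 8 h was 0.02 in the LV and 0.00 in the RV, beside -0.02 and -0.07 over all genes tested. On the TPM scale the 31 general core and 19S subunits had a median log2 change of -0.32 in the LV and -0.41 in the RV at 8 h, while the median of 11797 genes with a median over 1 TPM moved by -0.32 and -0.45, so that relative to the typical gene these subunits moved by 0.00 and 0.05. TPM are shares of a fixed total, so a lower TPM is a lower share and not a measured amount. Genes of the mitochondrial genome took 42.7% of TPM at 0 h and 48.5% at 8 h in the LV. In the RV they took 42.9% and 49.0%. Since whole ventricle was sequenced, fewer cells of a type and less RNA per cell cannot be told apart.

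**Figure D2:**
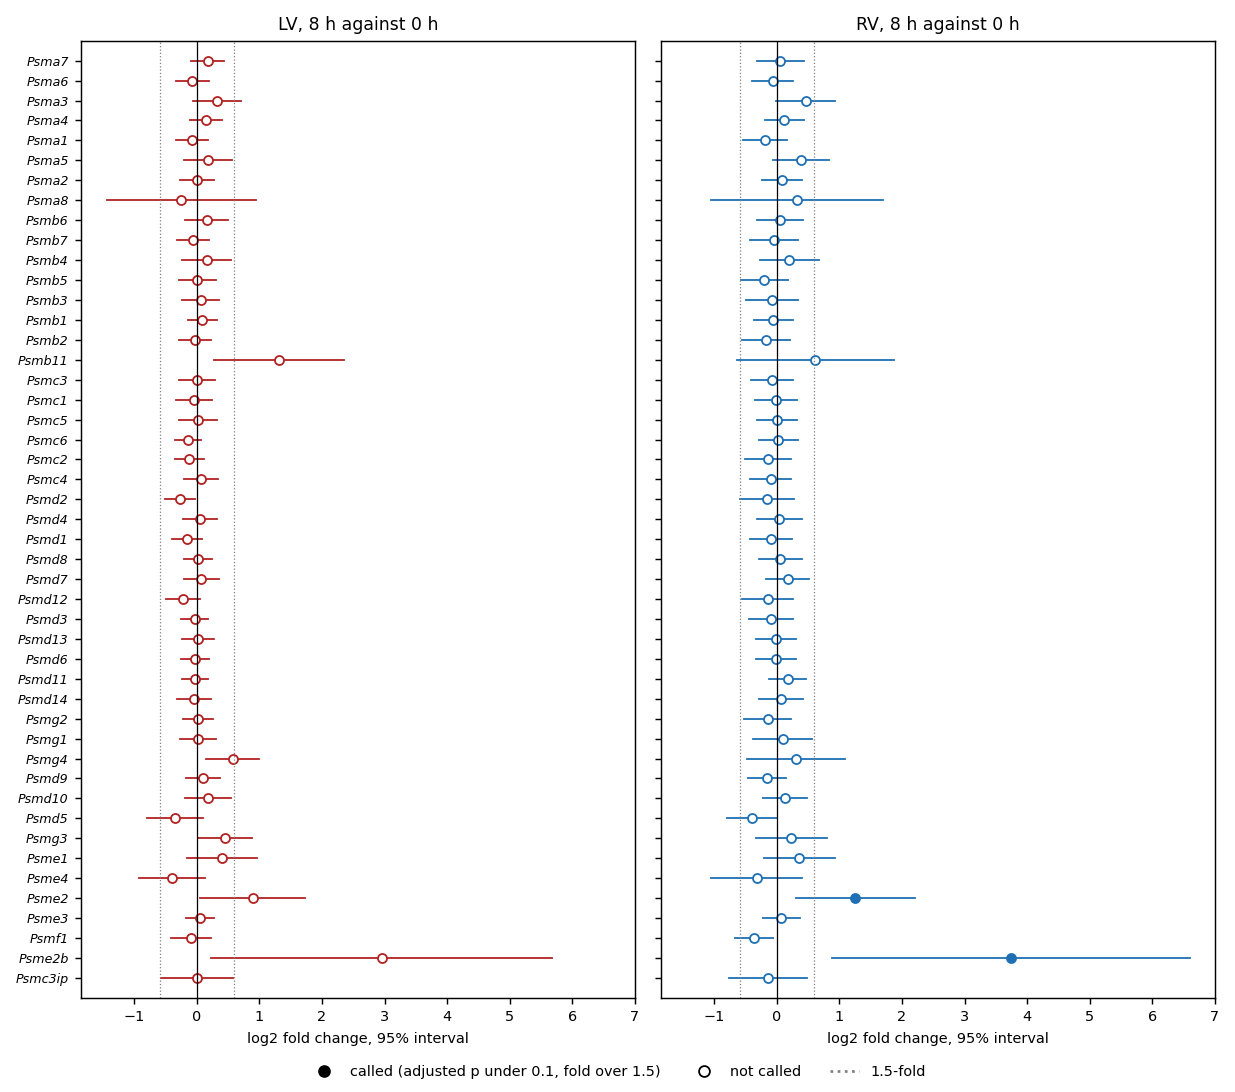
The log2 fold change at 8 h against 0 h with its 95% interval for each of the 47 genes in LV (left) and RV (right), with dotted lines at 1.5-fold and filled points for called genes. The 2 filled points are Psme2 and Psme2b in the RV, and most other intervals fall between the dotted lines.

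Of the 3 catalytic subunits, Psmb5 was measured at 69.6, 61.9 and 73.7 CPM in the LV at 0 h and at 76.7, 59.6 and 69.5 CPM after 8 h. In the RV it was at 72.0, 56.1 and 69.3 CPM at 0 h and at 63.3, 56.9 and 50.5 CPM after 8 h. The ranges of the groups overlapped in both ventricles, with log2 fold changes of 0.01 (SE 0.13, adjusted p = 0.974, edgeR) and -0.20 (SE 0.17, adjusted p = 0.414). Psmb6 was at 70.3, 66.2 and 78.0 CPM in the LV at 0 h and at 83.7, 71.1 and 84.1 CPM after 8 h, and in the RV at 75.4, 59.6 and 78.3 CPM against 77.4, 68.1 and 73.4 CPM. Its groups overlapped too, with log2 fold changes of 0.16 (SE 0.15, adjusted p = 0.546) and 0.05 (SE 0.17, adjusted p = 0.846). Psmb7 was at 118, 98.6 and 119 CPM in the LV at 0 h and at 108, 102 and 108 CPM after 8 h, and in the RV at 109, 86.3 and 102 CPM against 104, 103 and 79.4 CPM. No direction was resolved for it either, with log2 fold changes of -0.07 (SE 0.11, adjusted p = 0.735) and -0.04 (SE 0.17, adjusted p = 0.869). At 4 h the log2 fold changes of these 3 genes were 0.03 to 0.08 in the LV and 0.11 to 0.25 in the RV, and none was called. Transcript words of 31 bases showed that 67.8% of the main Psmb5 transcript also occurs in other genes, mostly the pseudogene Gm3375, so its count is less certain than the other 2.

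The stretches upstream of the RefSeq start sites (GRCm38.p6) are shown for Psmb5 and Psmb6 because both hold the core of the antioxidant response element. This is the site of the NRF1 and NRF2 factors known to drive proteasome genes. The gene of NRF2, Nfe2l2, rose in the RV, while that of NRF1, Nfe2l1, was not called in either ventricle (below). The 250 bases before the start are printed 5′ to 3′ with matches in capitals, from chr14:54617996-54618245 (minus strand) and chr11:70525107-70525356 (plus strand).
Psmb5: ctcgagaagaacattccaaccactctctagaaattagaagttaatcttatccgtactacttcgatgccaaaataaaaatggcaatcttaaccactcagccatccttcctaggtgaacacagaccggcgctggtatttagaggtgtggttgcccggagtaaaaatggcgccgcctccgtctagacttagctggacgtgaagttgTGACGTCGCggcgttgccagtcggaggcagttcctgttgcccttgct
Psmb6: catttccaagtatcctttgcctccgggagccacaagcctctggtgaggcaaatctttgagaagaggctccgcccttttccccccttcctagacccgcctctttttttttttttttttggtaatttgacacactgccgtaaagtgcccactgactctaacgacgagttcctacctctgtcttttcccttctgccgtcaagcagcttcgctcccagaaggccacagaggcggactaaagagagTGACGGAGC
The letters TGACNNNGC, searched on both strands, occurred in 5 of the 39 genes that had a RefSeq promoter, namely Psmb5, Psmb6, Psmc6, Psmd12 and Psmd9. That is 12.8% of genes, beside 10.2% of all 32851 promoters of this length. A gene was counted if any of its start sites matched, while the share of all promoters counts each start singly. These shares are therefore not on the same measure, here and for the other motifs. In Psmb5 the match lies 47 to 39 bases and in Psmb6 9 to 1 bases before the start. The CCAAT box, the site of NF-Y, was in 14 of 39 genes (35.9%, beside 33.8% of all promoters). A match is a description of the letters and not a bound site.

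In the rest of the beta ring, Psmb2 had the lowest mean change of the 2 ventricles. It was at 50.8, 50.1 and 57.3 CPM in the LV at 0 h and at 47.2, 54.6 and 52.9 CPM after 8 h, and in the RV at 46.5, 44.0 and 63.4 CPM against 48.2, 46.7 and 40.4 CPM. Its log2 fold changes were -0.03 (SE 0.11) and -0.17 (SE 0.17), and the groups overlapped. The thymic form Psmb11 was between 0.203 and 1.67 CPM over all 18 libraries. It was at 0.207, 0.203 and 0.436 CPM in the LV at 0 h and at 0.493, 0.881 and 0.718 CPM after 8 h, where the groups did not overlap, and the log2 fold change of 1.31 (SE 0.46, adjusted p = 0.141) was not called. In the RV it was at 0.322, 0.609 and 1.04 CPM against 0.702, 0.578 and 1.67 CPM, a log2 fold change of 0.61 (SE 0.56). Without RV 8 h replicate 3 that value was -0.02.

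In the alpha ring, which gates the entry to the core, Psma3 had the highest mean change of the 2 ventricles. Its levels were 64.2, 46.3 and 64.2 CPM in the LV at 0 h and 72.5, 60.6 and 84.1 CPM after 8 h. In the RV they were 59.1, 49.2 and 59.1 CPM at 0 h and 74.4, 62.4 and 90.5 CPM after 8 h, so that every RV library at 8 h lay above every one at 0 h. The log2 fold changes of 0.32 (SE 0.17, adjusted p = 0.29) and 0.46 (SE 0.21, adjusted p = 0.176) were not called. Psma1 lay at the other end, with 70.6, 65.1 and 74.4 CPM in the LV at 0 h and 67.2, 71.6 and 60.6 CPM after 8 h, and in the RV 61.4, 62.7 and 71.1 CPM against 61.9, 62.0 and 45.3 CPM. The last value, of RV 8 h replicate 3, was the lowest of all 18 libraries for Psma1, and the log2 fold changes were -0.07 (SE 0.11) and -0.20 (SE 0.16). Of the main Psma3 transcript 76.3% of 31-base words are shared, mostly with Gm13835, and of Psma5 63.7%, so these counts are uncertain. That Psma3 transcript is annotated as a target of nonsense-mediated decay and took 35.4% of the gene's counts. A retained-intron form took a further 30.0%, so the Psma3 values are not those of coding transcripts alone. Same-numbered libraries deviated together across the RV times, and with the replicate number as a block 4 genes of the 47 passed an adjusted p under 0.1 at any fold upward in the RV at 8 h, against 2 without the block. The 2 added were Psma3 (log2 0.44, adjusted p = 0.0604) and Psma5 (log2 0.39, adjusted p = 0.0669), beside 18.5% of all genes higher at any fold, and 1 gene passed downward, Psmf1 (log2 -0.36, adjusted p = 0.0785), beside 14.6% of all genes lower.

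Among the 6 ATPases of the base no gene passed the test. Psmc2 had the lowest and Psmc5 the highest mean change of the 2 ventricles. Psmc2 was at 75.8, 69.0 and 75.2 CPM in the LV at 0 h and at 66.3, 66.8 and 68.8 CPM after 8 h, just below and not overlapping, a log2 fold change of -0.12 (SE 0.10, adjusted p = 0.493). In the RV it was at 71.5, 63.4 and 72.1 CPM against 67.3, 68.9 and 51.1 CPM, and the groups overlapped (log2 -0.14, SE 0.16). Psmc5 was at 66.2, 53.8 and 64.8 CPM in the LV at 0 h and at 67.9, 59.1 and 60.4 CPM after 8 h, and in the RV at 59.1, 51.7 and 56.2 CPM against 61.7, 53.7 and 50.5 CPM. Its log2 fold changes were 0.02 (SE 0.13) and 0.00 (SE 0.14).

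Of the non-ATPase subunits of the base, Psmd2, a scaffold that receives ubiquitin-like domains, was the most abundant in CPM. It was at 215, 192 and 195 CPM in the LV at 0 h, at 216, 199 and 209 CPM after 4 h and at 171, 174 and 154 CPM after 8 h. The 8 h libraries thus lay below all of 0 h and 4 h, and the log2 fold change of -0.27 at 8 h (SE 0.10, adjusted p = 0.17) was not called. With DESeq2 and transcript-length offsets it was -0.26 with an adjusted p of 0.0933, at a fold under 1.5. In the RV Psmd2 was at 197, 170 and 160 CPM at 0 h and at 171, 183 and 114 CPM after 8 h, where replicate 3 was the lowest, and the log2 fold change of -0.16 (SE 0.19) became 0.02 without that library. Psmd4, the ubiquitin receptor of the base, had log2 fold changes of 0.05 (SE 0.12) and 0.04 (SE 0.16), from 69.6, 64.3 and 69.3 CPM to 68.1, 64.8 and 76.7 CPM in the LV and from 62.0, 55.5 and 67.0 CPM to 63.9, 56.0 and 67.4 CPM in the RV, and its groups overlapped.

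In the lid, which removes ubiquitin, Psmd12 and Psmd7 marked the ends. Psmd12 was at 79.4, 67.5 and 70.6 CPM in the LV at 0 h and at 63.7, 68.0 and 54.3 CPM after 8 h, and in the RV at 72.2, 64.7 and 61.3 CPM against 65.3, 69.7 and 43.0 CPM. Replicate 3 was the lowest library at 8 h in both ventricles, and the log2 fold changes were -0.22 (SE 0.12, adjusted p = 0.292) and -0.15 (SE 0.18, adjusted p = 0.579). Psmd7 was at 78.5, 65.3 and 66.6 CPM in the LV at 0 h and at 72.6, 68.3 and 79.8 CPM after 8 h, and in the RV at 72.8, 61.1 and 62.3 CPM against 73.9, 69.3 and 76.0 CPM, with log2 fold changes of 0.07 (SE 0.12) and 0.17 (SE 0.15). None of the 8 lid subunits passed the test in either ventricle.

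Of the 7 assembly chaperones, Psmg4, which helps to assemble the alpha ring, was at 3.72, 3.48 and 4.39 CPM in the LV at 0 h and at 4.99, 5.59 and 6.61 CPM after 8 h. These groups did not overlap, but the log2 fold change of 0.57 (SE 0.19, adjusted p = 0.124) was not called. In the RV it was at 4.24, 2.51 and 4.80 CPM against 3.48, 3.6 and 6.93 CPM, where the 2 lower libraries overlapped with 0 h and only replicate 3 was above them (log2 0.30, SE 0.35). Psmd5, a chaperone of the ATPase ring, had the lowest values of change in this role, at 13.3, 12.8 and 12.8 CPM in the LV at 0 h and at 11.1, 12.2 and 7.08 CPM after 8 h, and in the RV at 13.3, 12.4 and 13.0 CPM against 10.1, 12.0 and 7.15 CPM. All 6 libraries at 8 h lay below all 6 at 0 h, with replicate 3 the lowest, and the log2 fold changes of -0.35 (SE 0.20, adjusted p = 0.319) and -0.40 (SE 0.18, adjusted p = 0.164) were not called. Psmc3ip, which is not part of the complex, was between 1.10 and 2.11 CPM in all libraries.

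The clearest difference lay in the PA28 cap. Psme2, its beta subunit, was at 31.5, 26.6 and 34.3 CPM in the RV at 0 h, at 41.4, 32.2 and 66.6 CPM after 4 h and at 48.3, 43.4 and 123 CPM after 8 h. In the LV it was at 34.2, 27.5 and 34.8 CPM at 0 h, at 39.0, 36.7 and 67.6 CPM after 4 h and at 41.3, 38.5 and 98.8 CPM after 8 h. Every library at 8 h lay above every library at 0 h in both ventricles, and replicate 3 was far above the other 2 at 4 and 8 h. In the RV Psme2 rose by a log2 fold change of 1.25 at 8 h (SE 0.42, adjusted p = 0.0842, or 0.0226 with the replicate number as a block). In the LV the log2 fold change at 8 h was 0.89 (SE 0.37, adjusted p = 0.194), and at 4 h it was 0.57 (SE 0.37) in the LV and 0.62 (SE 0.42) in the RV, none of them called. Without the stored libraries numbered 3 the RV value was 0.56 with an adjusted p of 0.0613, at a fold of 1.48 just under the 1.5 needed, and the LV value was 0.30 with an adjusted p of 0.259. The RV call was lost when any 1 of the 3 RV 0 h libraries (log2 1.27, 1.15 and 1.33 without replicate 1, 2 and 3), RV 4 h replicate 1 (1.24) or RV 8 h replicate 3 (0.58) was left out. The LV value was called when LV 8 h replicate 2 was left out (1.18, adjusted p = 0.0964).

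Psme2b, the copy of Psme2, was at 0.819, 0.847 and 1.5 CPM in the RV at 0 h, at 1.44, 1.01 and 13.5 CPM after 4 h and at 2.44, 3.73 and 34.7 CPM after 8 h. In the LV it was at 0.599, 1.28 and 1.62 CPM at 0 h, at 0.777, 0.772 and 13.1 CPM after 4 h and at 3.36, 3.19 and 20.3 CPM after 8 h. The groups at 0 and 8 h did not overlap, and replicate 3 again was the highest. In the RV it rose by 3.74 on the log2 scale (SE 1.27, adjusted p = 0.0846), and in the LV the value was 2.95 (SE 1.21, adjusted p = 0.184). Without the stored libraries numbered 3 it was called in both ventricles, with smaller log2 fold changes of 1.53 in the RV (adjusted p = 0.0312) and 1.5 in the LV (adjusted p = 0.0681). Leaving out 1 library, the RV call was lost without RV 0 h replicate 1, 2 or 3 (3.58, 3.6 and 4.07) or RV 8 h replicate 3 (1.55), and the LV value was called without LV 4 h replicate 3 (3.01). The main transcripts of the 2 genes were 99.4% identical, with 5 different bases in 794 aligned, and 78.4% of the 31-base words of Psme2b and 66.2% of those of Psme2 occur in other genes. The program that estimated the counts could thus split reads between them, and Psme2b took 1.85% to 4.90% of their joint TPM at 0 h and 4.88% to 16.4% in 5 of the 6 libraries at 8 h, with RV 8 h replicate 3 above them. Summed to 1 gene, they were called in the RV at 8 h with a log2 fold change of 1.46 (SE 0.50, adjusted p = 0.0870) and not in the LV (1.04, SE 0.43, adjusted p = 0.189).

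The stretches before RefSeq starts of the PA28 genes are shown to let the neighbours Psme1 and Psme2, both on chromosome 14, be set beside the copy Psme2b, whose transcript is nearly that of Psme2. They are from chr14:55578244-55578493 (plus strand), chr14:55591022-55591271 (minus strand, the more downstream of 2 RefSeq starts) and chr11:48946411-48946660 (minus strand). In the annotation used for the counts Psme1 starts at 55578123, so its stretch lies inside the gene. The Psme2 stretch takes in the first bases of that gene, which starts at 55591113.
Psme1: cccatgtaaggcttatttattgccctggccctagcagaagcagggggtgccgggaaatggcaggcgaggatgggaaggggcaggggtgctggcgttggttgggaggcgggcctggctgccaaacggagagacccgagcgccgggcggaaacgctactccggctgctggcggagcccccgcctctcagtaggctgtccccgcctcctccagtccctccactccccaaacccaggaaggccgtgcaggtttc
Psme2: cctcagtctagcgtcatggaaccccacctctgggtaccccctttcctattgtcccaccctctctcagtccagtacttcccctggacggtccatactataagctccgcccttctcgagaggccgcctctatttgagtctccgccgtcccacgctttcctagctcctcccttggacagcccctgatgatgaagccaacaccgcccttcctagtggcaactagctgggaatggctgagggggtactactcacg
Psme2b: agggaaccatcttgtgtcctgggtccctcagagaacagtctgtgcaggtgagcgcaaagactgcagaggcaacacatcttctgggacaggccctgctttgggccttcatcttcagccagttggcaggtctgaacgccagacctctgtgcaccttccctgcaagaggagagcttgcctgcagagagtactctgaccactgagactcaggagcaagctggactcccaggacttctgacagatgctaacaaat
None of the 3 held the letters of an interferon-stimulated response element (GAAA, any 2 bases, GAAA) or TTCNNNGAA of a gamma-activated site on either strand, which says only that these letters are not in this window. The first was in 3 of the 39 genes (7.69%, namely Psmb3, Psmd4 and Psmd9), beside 2.98% of all promoters, and the second in 1 gene, Psmg1 (2.56%), beside 7.02%. These shares too are by gene for the 39 and by single promoter for all.

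Psme1, the alpha subunit of PA28, was at 73.9, 60.8 and 73.4 CPM in the LV at 0 h and at 70.5, 77.3 and 127 CPM after 8 h, and in the RV at 84.9, 66.2 and 82.9 CPM against 76.9, 87.7 and 130 CPM. The groups overlapped, replicate 3 was the highest at 8 h, and the log2 fold changes of 0.40 (SE 0.25, adjusted p = 0.349) and 0.36 (SE 0.25, adjusted p = 0.344) were not called. Without the stored libraries numbered 3 they were 0.08 and 0.07. The ratio of Psme2 to Psme1 in TPM was 0.499 to 0.627 in the 6 libraries at 0 h and 0.668 to 1.37 in the 6 at 8 h, without overlap. It was highest in RV 8 h replicate 3.

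No other cap, nor the inhibitor, was called. Psme3, the nuclear PA28 gamma subunit, was at 49.3, 46.3 and 43.5 CPM in the LV at 0 h, at 52.7, 52.8 and 55.6 CPM after 4 h and at 47.0, 51.0 and 45.3 CPM after 8 h. In the RV it was at 47.8, 43.0 and 40.7 CPM, at 53.2, 50.0 and 57.0 CPM and at 49.6, 45.3 and 42.2 CPM. All 4 h libraries lay above all 0 h libraries of their ventricle, and 8 h overlapped with 0 h. The log2 fold changes at 4 h were 0.22 (SE 0.10, adjusted p = 0.331) and 0.30 (SE 0.13, adjusted p = 0.221), and neither was called. Psme4, which encodes the large single-chain cap PA200, was at 299, 305 and 282 CPM in the LV at 0 h and at 192, 317 and 161 CPM after 8 h, and in the RV at 277, 303 and 218 CPM against 204, 321 and 110 CPM. Replicate 2 was the highest library at 8 h in both ventricles, while replicates 1 and 3 were below all libraries of 0 h. The log2 fold changes were -0.40 (SE 0.24, adjusted p = 0.335) and -0.32 (SE 0.33, adjusted p = 0.497), and they were called lower only when replicate 2 of the 8 h group was left out, at -0.70 (adjusted p = 0.0449) and -0.76 (adjusted p = 0.0768). Psmf1 was between 10.6 and 16 CPM in all libraries, and every RV library at 8 h (11.8, 12.0 and 10.6 CPM) was below every one at 0 h (13.6, 16 and 15.0 CPM), a log2 fold change of -0.37 (SE 0.13, adjusted p = 0.102). In the LV it was at 12.4, 13.6 and 14.7 CPM at 0 h and at 11.7, 12.8 and 13.7 CPM after 8 h, and the groups overlapped.

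**Figure D3:**
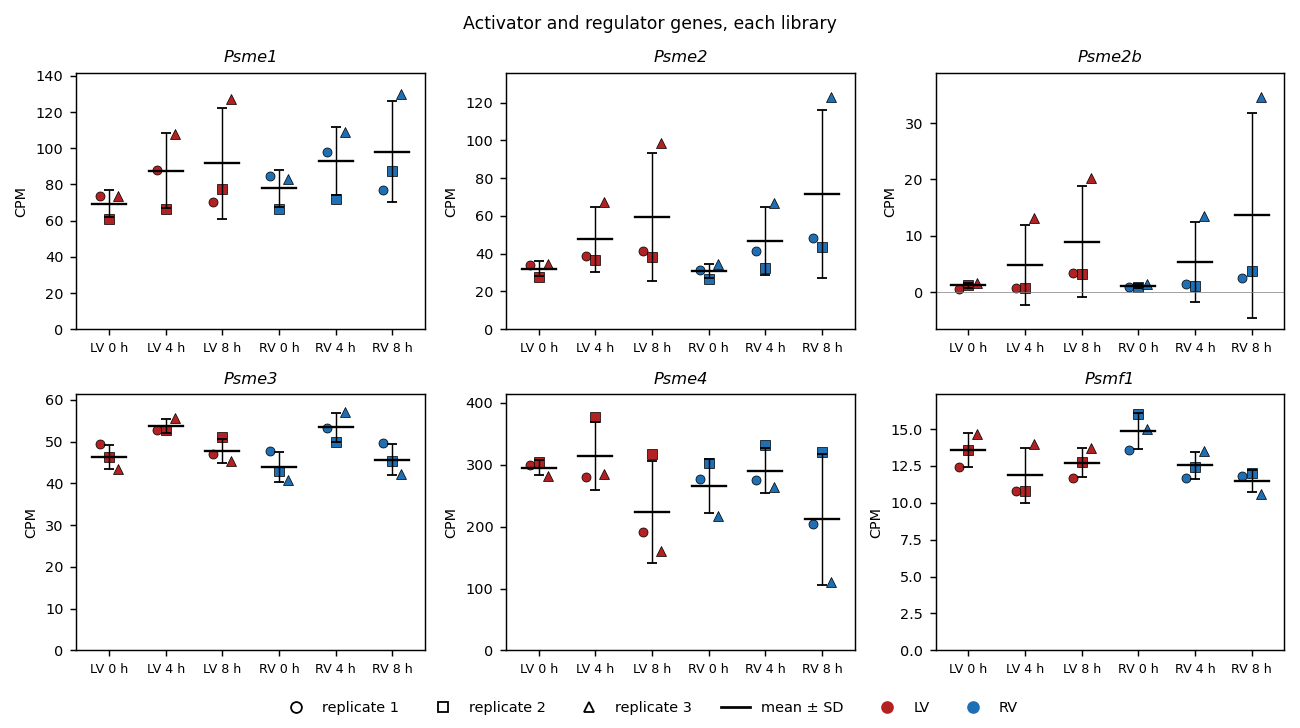
CPM of Psme1, Psme2, Psme2b, Psme3, Psme4 and Psmf1 in each library by group, with marker shape for the replicate number and the mean and SD of 3 libraries in black. Replicate 3 is the highest stored library for Psme1, Psme2 and Psme2b, up to 123 CPM for Psme2, while Psme4 at 8 h is highest in replicate 2.

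Markers of other cells were read beside these genes. The shares of all genes called in each comparison are those given above. The 9 leukocyte markers, among them Ptprc and Lyz2, summed to 133 to 231 CPM in the LV and 162 to 284 CPM in the RV at 0 h, to 118 to 202 and 147 to 211 CPM at 4 h, and to 155 to 285 and 182 to 362 CPM at 8 h. In each stored group the library numbered 3, with the highest Psme2, had the lowest of these sums, of which Lyz2 made up the largest part. Of the 7 leukocyte markers tested, 3 were called higher in the RV at 8 h (Ptprc, Adgre1 and Itgam) and 2 in the LV (Ptprc and S100a8), with medians of 0.90 and 0.56 on the log2 scale, and Ptprc was also called in both ventricles at 4 h. The mean of Ptprc, which all leukocytes carry, went from 7.53 to 19.1 CPM in the RV and from 6.71 to 13.4 CPM in the LV. Without the stored libraries numbered 3, the calls at 8 h were 3 in each ventricle. The T-cell marker Cd3e was at most 0.111 CPM and the neutrophil marker S100a8 at most 3.08 CPM. Of 6 endothelial markers, 2 were called lower in the RV at 4 h (Egfl7 and Tek) and 1 at 8 h (Egfl7), and none in the LV. At 8 h the list was split, with 3 of the 6 above 0 in each ventricle. In the RV the means of Tie1, Cdh5 and Pecam1 went from 104, 182 and 154 CPM at 0 h to 153, 238 and 175 CPM at 8 h, and none of these was called. Of 4 erythroid markers tested, 2 haemoglobin genes were called higher in the LV at 8 h, and the median over the list was 3.85 on the log2 scale there and 2.92 in the RV. The sums of all 5 listed were 196, 11.9 and 31.2 CPM in the LV at 8 h, against 4.51 to 6.21 CPM at 0 h. In the RV they were 52.3, 3.96 and 30.1 CPM, against 2.4 to 5.93 CPM. Replicate 1 was the highest in both ventricles, and RV 8 h replicate 2 lay within the 0 h range. The cardiomyocyte markers summed to 44740, 51623 and 26451 CPM in the 3 RV libraries at 8 h, against 54829 to 62918 CPM at 0 h, and to 44010, 45536 and 38793 CPM in the LV, against 52029 to 63323 CPM. The groups did not overlap in either ventricle, and 1 of the 6 markers, Myh6, was called lower in the LV and none in the RV. None of the 6 fibroblast markers was called at 4 or 8 h. They summed to 1848, 1004 and 1110 CPM in the RV at 8 h, against 904 to 978 CPM at 0 h. In the LV they summed to 1400, 920 and 980 CPM, against 781 to 865 CPM. The part of cell composition in the values above was not tested.

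The constitutive catalytic subunits were set beside the interferon-inducible forms that can take their places. Psmb8, which replaces Psmb5, was at 7.22, 7.86 and 10.1 CPM in the RV at 0 h and at 24.1, 28.3 and 178 CPM after 8 h, and in the LV at 7.27, 8.00 and 9.49 CPM against 22.8, 21.7 and 114 CPM. It rose in the RV (log2 3.24, SE 0.98, adjusted p = 0.0585) and was not called in the LV (2.69, SE 0.83, adjusted p = 0.108). Psmb9 and Psmb10 had log2 fold changes at 8 h of 2.39 and 1.42 in the RV and 2.18 and 1.20 in the LV, with adjusted p between 0.122 and 0.152. In the RV, with the replicate number as a block, the adjusted p was 0.0351 and 0.0330. That block was inferred from these data and is not given by the labels. Without the stored libraries numbered 3 the log2 fold changes were smaller. Psmb8 was then called in both ventricles, at 1.63 in the RV (SE 0.20, adjusted p = 0.00125) and 1.42 in the LV (SE 0.15, adjusted p = 0.00119). Psmb9 was called in the LV (1.09, adjusted p = 0.0461) and not in the RV (0.76, adjusted p = 0.136), and Psmb10 in neither (0.56 and 0.47, adjusted p = 0.208 and 0.155). The share of Psmb8 in the joint TPM of Psmb8 and Psmb5 was 7.01% to 10.1% in the 6 libraries at 0 h and 18.1% to 70.7% at 8 h. Psmb9 took 1.56% to 3.40% beside Psmb6 at 0 h and 4.66% to 26.7% at 8 h, and Psmb10 took 20.3% to 25.8% beside Psmb7 and 29.0% to 67.2%. For each of the 3 pairs all 8 h libraries lay above all 0 h libraries, and replicate 3 was the highest at 4 and 8 h. The inducible forms made up 10.7% to 13.4% of the TPM of all 6 catalytic genes at 0 h and 19.2% to 58.3% at 8 h. The Psmb5, Psmb6 and Psmb7 values themselves, given above, were not called.

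**Figure D4:**
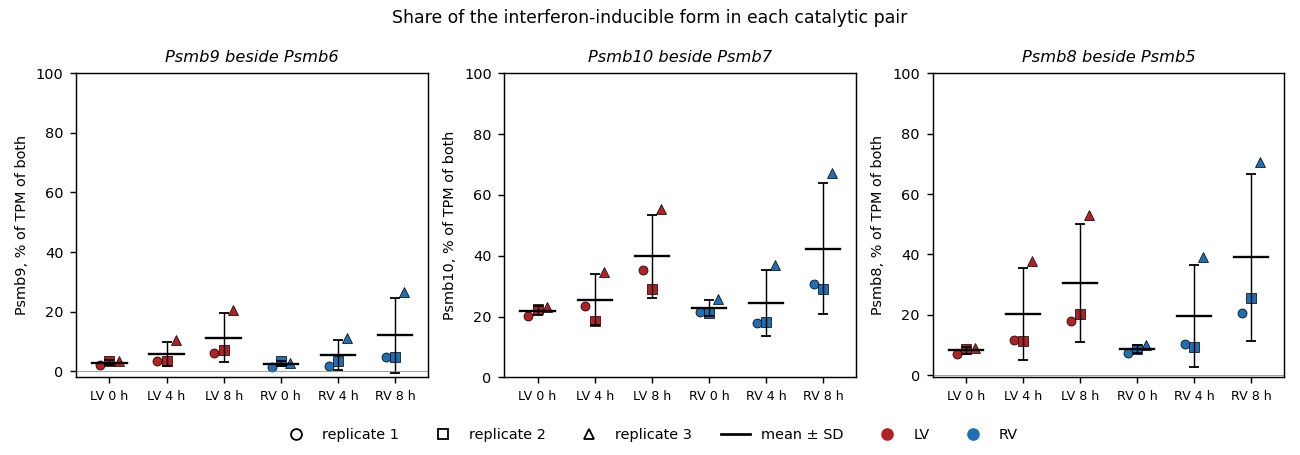
Share (%) of Psmb9, Psmb10 and Psmb8 in the joint TPM of each with Psmb6, Psmb7 and Psmb5, in each library by group, with the mean and SD of 3 libraries in black. At 8 h all libraries lie above those at 0 h, from 18.1% to 70.7% for Psmb8.

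After 4 h most log2 fold changes in the RV were small and above 0. There 45 of 47 genes had a log2 fold change above 0, beside 50.4% of all genes tested, and the median was 0.15 beside 0.00. Leaving out 1 library moved this median from 0.10 without RV 0 h replicate 2, where 35 genes were above 0, to 0.24 without RV 4 h replicate 2. All 31 general subunits of the core and 19S particle were above 0, from 0.04 for Psma4 to 0.35 for Psma3, and none was called (lowest adjusted p = 0.199, for Psmd11). The summed CPM of these 31 subunits was 2246, 1937 and 2194 in the RV at 0 h, 2514, 2100 and 2434 after 4 h and 2224, 2128 and 1946 after 8 h. Replicate 2 was the lowest library at 0 and at 4 h, and 1 library at 4 h lay below the upper 2 at 0 h, so the groups overlapped. In each of the 3 same-numbered pairs the 4 h library was the higher. These pairs are of different hearts and were inferred from these same data, with correlations of 0.269, 0.111 and 0.134 for numbers 1 to 3. In the LV the sums were 2396, 2121 and 2366 at 0 h, 2443, 2182 and 2519 after 4 h and 2304, 2214 and 2288 after 8 h, which overlapped as well. On the TPM scale 20 of the 31 were below 0 in the RV at 4 h, with a median of -0.03 beside -0.16 over all genes, so the direction in the RV holds relative to the typical gene only. Between 4 and 8 h, 36 of 47 genes in the RV had a log2 fold change below 0 (median -0.14 beside 0.01 over all genes) and none was called, as for 0% of all genes. These 2 comparisons share the 4 h libraries.

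The ventricles were compared at equal storage time. At 0 h the log2 difference of LV over RV was above 0 for 40 of 47 genes (median 0.10 beside -0.01 over all genes), at 4 h for 28 and at 8 h for 41 (median 0.12 beside 0.01), and no gene of the 47 was called at any time. Without RV 0 h replicate 2 the count at 0 h was 27 (median 0.04), and the count at 4 h went from 10 without RV 4 h replicate 2 to 38 without RV 4 h replicate 3. Of all genes, 0.0729% were called higher and 0.0861% lower in the LV at 0 h, 0% and 0.0133% at 4 h, and 0.0133% and 0.0199% at 8 h. Same-numbered LV and RV libraries deviated together, and with the number as a block 8 of the 47 genes had an adjusted p under 0.1 at any fold and were higher in the LV at 8 h, beside 15.5% of all genes, and 1 was lower, beside 16.5%. The 8 genes were Psma1, Psmb1, Psmb3, Psmb5, Psmc5, Psmd13, Psmd4 and Psmg3, a share of 17% and so close to that of all genes. Psmb5 had a log2 difference of 0.27 (SE 0.08, adjusted p = 0.0359) and Psma1 of 0.25 (SE 0.07, adjusted p = 0.0341). Psme2 was the gene lower in the LV, at -0.24 (SE 0.07, adjusted p = 0.0247), with LV values of 41.3, 38.5 and 98.8 CPM and RV values of 48.3, 43.4 and 123 CPM in replicates 1 to 3. The RV was thus the higher in each of the 3 pairs. No fold exceeded 1.5, and at 0 and 4 h the blocked fit gave 0 of the 47 genes in either direction at any fold, beside 2.11% of all genes higher and 1.99% lower in the LV at 0 h and 2.16% and 3.11% at 4 h.

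**Figure D5:**
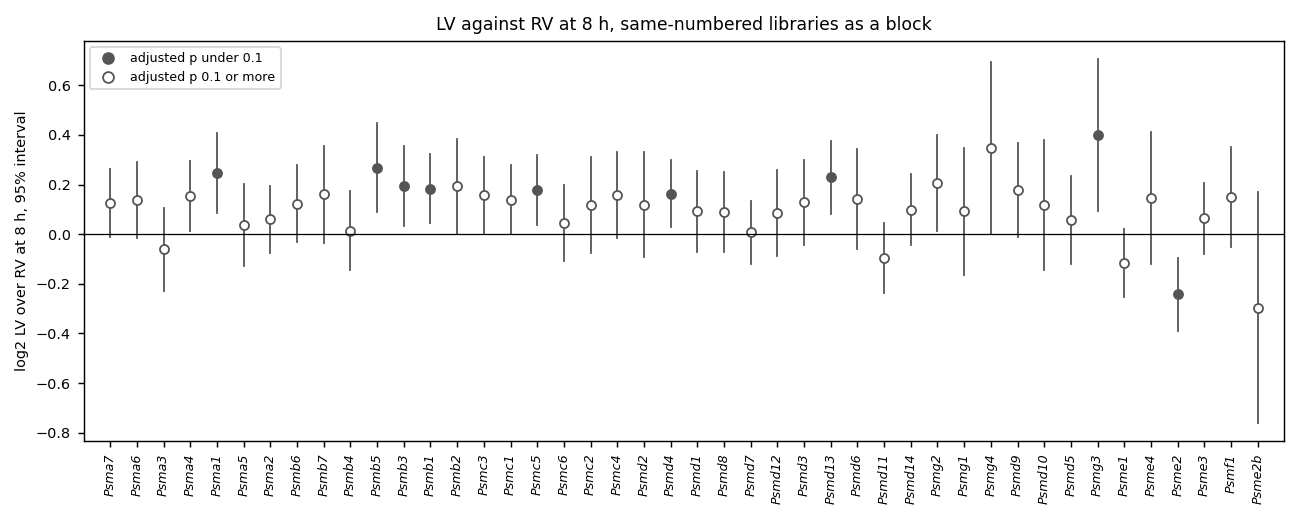
Log2 difference of LV over RV at 8 h with its 95% interval for the 47 genes without Psma8, Psmb11 and Psmc3ip, which are left out for their low levels, from the fit with same-numbered libraries as a block. Filled points have an adjusted p under 0.1, 8 above 0 and Psme2 below 0 at -0.24.

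Whether the change from 0 h differed between ventricles was tested as an interaction. No gene of the 47 was called at 4 or 8 h, as for 0% of all genes, and the differences of the LV change minus the RV change at 8 h were -0.33 (SE 0.59) for Psme2 and -0.74 (SE 1.83) for Psme2b. The call of Psme2 in the RV and not in the LV is therefore not a shown difference between ventricles in this fit. With the number as a block the difference for Psme2 was -0.30 (SE 0.10, adjusted p = 0.0846), at a fold under 1.5, and 8.02% of all genes passed in this direction and 3.55% in the other at any fold.

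Genes that act around the proteasome were read from lists of their own. Of all genes tested, 6.17% were called higher in the RV at 4 h and 13% at 8 h, and 2.4% and 5.46% in the LV. Called lower in the LV at 8 h were 1.26%. Of 8 genes that regulate proteasome transcription, 3 were called higher in the RV at 4 and at 8 h, Nfe2l2 (log2 0.76, SE 0.20 and 0.95, SE 0.20), Nfya (0.84 and 1.01) and Nfyb (0.82 and 1.04), the last 2 being subunits of NF-Y. Nfyc, the remaining subunit, was at 35.2, 37.3 and 39.6 CPM in the RV at 0 h and at 28.1, 32.4 and 21.6 CPM after 8 h. The groups did not overlap, and its log2 fold change of -0.44 (SE 0.15, adjusted p = 0.0872) was below 1.5-fold and so not called. In the LV only Nfyb was called, at 4 h (0.61, SE 0.15, adjusted p = 0.0990) and at 8 h (0.72, SE 0.15, adjusted p = 0.0410). Nfe2l1, the gene of NRF1, was called in neither ventricle. Its mean was 443 CPM at 0 h and 392 CPM at 8 h in the RV, and 469 and 404 CPM in the LV. Among ubiquitin and E1 genes, the polyubiquitin gene Ubb rose in the RV at 4 h (0.65, SE 0.18) and 8 h (0.81, SE 0.18) and was not called in the LV. Of 11 tested genes of other proteasome parts and partners, Zfand5, a proteasome-binding protein, rose in the RV at 4 h (0.61, SE 0.18) and Zfand2a, a stress-induced relative, at 8 h (1.68, SE 0.38, adjusted p = 0.0202). Of 6 muscle ubiquitin ligases, Fbxo30 rose in the RV at 4 h (1.05, SE 0.18) and 8 h (0.96, SE 0.18), and Trim63, which marks myofibrillar proteins, fell in the LV at 8 h (log2 -0.79, SE 0.21, adjusted p = 0.0788). None of 5 shuttle factors was called. Of the 18 interferon-induced genes, 17 were called higher in the RV and 16 in the LV at 8 h, and 11 and 4 at 4 h. Without the stored libraries numbered 3 these counts were 16 and 16 at 8 h and 14 and 15 at 4 h. In that fit Nfe2l2, Nfya, Nfyb, Ubb, Fbxo30, Zfand5 and Zfand2a were called higher in the RV at both times. Rises were called in the LV at 4 h too, for 1 of the 8 regulators and 1 of the 11 other parts and partners. The same held for 1 of the 6 muscle ubiquitin ligases. Nfyb (0.57, adjusted p = 0.0821, at a fold under 1.5) and Trim63 (-0.65, adjusted p = 0.139) were not called in the LV at 8 h.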

How the data were processed

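Ventricular RNA of 18 libraries was sequenced from 1 h-perfused mouse hearts stored for 0, 4 or 8 h. The authors quantified reads with Kallisto (version 0.43.0, per the study's methods) against GRCm38 and deposited estimated counts and TPM per transcript, with no depth beyond the counts. Here 110203 of 111462 transcripts were matched to 34989 genes through the GENCODE annotation and summed per gene. The unmatched 1259 held 0.310% to 0.383% of counts and stayed out of the tests. Rounded sums were tested in R 4.3.3 with edgeR 4.0.16 (filterByExpr, TMM, quasi-likelihood test, Benjamini-Hochberg adjustment over all genes tested), within a ventricle over its 9 libraries and between ventricles over all 18, and genes were called at adjusted p under 0.1 and fold change over 1.5. DESeq2 1.42.0 with transcript-length offsets was an alternative, beside RLE scaling, length offsets in edgeR, no filter, mitochondrial genes left out, 1 joint fit, a replicate block and each library left out. The tests were tried on simulated data. Genes of the mitochondrial genome took 22.6% to 34.3% of counts. Error statements use SD over 3 libraries or the SE of the fit.

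The labels number the libraries but do not say that a number is a heart, nor that libraries of a group are separate animals, so p-values measure the spread between these libraries. Deviations from group means correlated in all 9 same-numbered LV and RV pairs (0.325 to 0.697 across genes), in all such pairs of RV times and of LV 4 and 8 h, but not in all LV pairs with 0 h, and the numbers were taken to pair the former. This pairing was inferred from these same data. Across times a number cannot be 1 heart, since each heart had 1 storage time. The 47 genes and the other lists were chosen with earlier results of these data known. Values at 0 and 8 h are given in every library for the catalytic subunits, the activators, called genes and, in each role, the genes with the highest and lowest mean change at 8 h. Psmf1, Psma5, Psma8, Psmb8, Psmb9, Psmb10, Psmd11 and Psmg3 were added beside results that concern them. The list of ubiquitin and E1 genes is not reported here in full.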

Additional observations from a re-analysis of the deposited data

Results flagged for a closer look

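Psme2 was picked out by a difference between the ventricles in its change at 8 h against 0 h. The LV change minus the RV change was -0.30 on the log2 scale in the fit with same-numbered libraries as a block (SE 0.10, adjusted p = 0.0846, edgeR), and -0.33 (SE 0.59) without the block, where it was not called. With the block 8.02% of all genes passed in this direction at any fold. The RV level was higher than the LV level in each of the 3 pairs at 8 h. Psme2 was not alone in this direction. Without the block, 0 of the 18 interferon-induced genes had a difference above 0 (median -0.74). The same held for 0 of the 3 inducible catalytic subunits (median -0.19). None of these genes was called.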

How the results depend on the processing

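The count of the 47 genes called was 0 under the settings tried in 9 of the 11 comparisons and changed in the other 2. In the LV at 8 h, where 0 were called, DESeq2 with transcript-length offsets gave 1 (Psme2), leaving out the stored libraries numbered 3 gave 1 (Psme2b), and leaving out 1 library gave 0 to 3 (3 without LV 8 h replicate 2, which were Psme2 and Psmg3 higher and Psme4 lower). In the RV at 8 h, where 2 were called, leaving out the stored libraries numbered 3 gave 1 (Psme2b), summing Psme2 with Psme2b gave 1, and leaving out 1 library gave 0 to 3 (0 without RV 8 h replicate 3 or any RV 0 h library, 1 without RV 4 h replicate 1, 3 without RV 8 h replicate 2). Leaving out the libraries numbered 3 and summing the copies were chosen after seeing the data. Psme2 and Psme2b kept a log2 fold change above 0 at 8 h in all 9 fits of each ventricle that left out 1 library. The cause of these moves was not tested beyond the smaller number of libraries.

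With the replicate number as a block, 3 genes were called in the LV at 8 h (Psmb11, Psme2 and Psme2b, beside 8.1% of all genes higher), where not every same-numbered pair correlated with 0 h. The replicate block changed no other count of calls at the 1.5-fold threshold.

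Of 754 log2 fold changes of 21 genes at 8 h recomputed under these settings, 687 kept direction and side of the threshold, 10 lost and 9 gained a call, and 48, of 13 genes, changed sign. None of the 48 was called, and the recomputed values were at most 0.14 in size. The main values they replaced were up to 0.61, for Psmb11 in the RV. In the LV at 8 h Psmb5 was -0.01 with DESeq2, -0.01 with length offsets in edgeR, -0.002 without a filter and -0.02 without the libraries numbered 3. Psmc3ip was 0.14, 0.14 and 0.12 under the first, second and last of these, 0.0046 with RLE scaling and 0.02 with the replicate block. Without the libraries numbered 3, Psmd4 was -0.04 and Psmd7 -0.0076 in the LV, and in the RV Psmb11 was -0.04, Psmb7 0.05, Psmd12 0.02, Psmd2 0.0014, Psmd4 -0.05 and Psmg4 -0.14. In the RV Psmc5 was -0.0079 with length offsets in edgeR, -0.02 without a filter, -0.0021 without mitochondrial genes and -0.0093 with all 18 libraries in one fit, and Psme3 was -0.02 with length offsets.

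Leaving out 1 library at a time, the sign changes lay in these ranges. In the LV they were -0.07 to 0.03 for Psmb2, -0.08 to 0.13 for Psmb5, -0.14 to 0.14 for Psmc3ip, -0.07 to 0.10 for Psmc5, -0.03 to 0.14 for Psmd4, -0.0027 to 0.16 for Psmd7 and -1.6e-05 to 0.09 for Psme3. In the RV they were -0.02 to 1.11 for Psmb11, -0.28 to 0.0013 for Psmb2, -0.07 to 0.12 for Psmb6, -0.14 to 0.07 for Psmb7, -0.06 to 0.06 for Psmc5, -0.28 to 0.04 for Psmd12, -0.29 to 0.02 for Psmd2, -0.04 to 0.11 for Psmd4 and -0.12 to 0.49 for Psmg4. Depth limits Psma8, Psmb11 and Psmc3ip, at most 2.11 CPM in any library, and Psme2b at 0 h, at most 1.62 CPM.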
